A study of Mus musculus with 16 samples.

Results

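Kainate and metabotropic glutamate receptors were examined as 9 genes, 5 kainate receptor subunits (Grik1, Grik2, Grik3, Grik4 and Grik5) and 4 metabotropic receptors (Grm2, Grm3, Grm5 and Grm7). They were taken by gene symbol from tables of 22440 genes, and all 9 were found. The data are 4 RNA-seq libraries of cortical neurons from Swiss-Webster mice, taken at embryonic day 16 and cultured. The etoposide library came from neurons given etoposide at 5 µM, for a length of time that the labels do not give, and its control from a culture whose title names no treatment. The NMDA library came from neurons given NMDA, and its control from a further culture whose title names no treatment. The labels give NMDA as 50 µM for 10 min with 10 min of recovery in most experiments, without saying whether this library was among them. All 4 cultures were mixed cells of dissociated cortex kept on laminin and poly-D-lysine in the same neurobasal medium with B27 supplement, and the sources used here do not give the number of embryos behind each. Etoposide traps type II topoisomerases on cut DNA, and NMDA opens the NMDA class of glutamate receptor. The series asked how DNA breaks relate to the expression of genes that respond early to neuronal activity, and the 12 chromatin samples were not analysed here. Each group had 1 library, so no test was made and no p-value is given.

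Kainate receptors are glutamate-gated ion channels made of 4 subunits. The primary subunits encoded by Grik1, Grik2 and Grik3 can form channels on their own, while the secondary subunits encoded by Grik4 and Grik5 bind glutamate tightly but need a primary subunit to reach the cell surface as a channel. Metabotropic receptors are G-protein-coupled. Grm5 belongs to group I, which acts through Gq and phospholipase C and sits mainly around the postsynaptic density. Grm2 and Grm3 belong to group II and Grm7 to group III, which act through Gi/o proteins and lower transmitter release, and Grm7 sits at the presynaptic active zone. Grm3 and Grm5 are also known from astrocytes.

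The values are FPKM (fragments per kilobase of transcript, scaled to the library's total), as the authors deposited them. Steps between the lowest values of single-exon genes put 1 fragment on 1 kb of transcript at 0.0588 FPKM with etoposide, 0.0552 in its control, 0.0429 with NMDA and 0.0405 in its control. These steps were less sharp in the etoposide pair, so fragment numbers and the exact 95% intervals made from them are approximate and cover counting error only. The pairs lie on different scales. The NMDA control stood 3.03-fold above the etoposide control by the ratio of the medians of genes at FPKM of at least 1 in both, so levels are compared within a pair or as shares within a library. Within the etoposide pair the median FPKM ratio of genes at FPKM of at least 1 in both was 0.762, against 1.02 within the NMDA pair. Markers of neurons were well expressed, as the summed FPKM of 9 pan-neuronal markers was 347 with etoposide, 577 in its control, 1588 with NMDA and 1487 in its control.

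Most of the receptor genes are very long. Of the 9 genes, 7 span over 200 kb, against 5.87% of all genes in the tables. Grm7 is the longest at 922 kb (mm9, chr6:110595592-111517224), followed by Grik2 at 689 kb (chr10:48819269-49508560), Grm5 at 551 kb (chr7:94732678-95283573), Grik4 at 424 kb (chr9:42328495-42752454) and Grik1 at 394 kb (chr16:87896142-88290503). Grm3 spans 240 kb (chr5:9485236-9725352) and Grik3 spans 223 kb (chr4:125168075-125391417). The short ones are Grik5 at 62.5 kb (chr7:25794870-25857388) and Grm2 at 11.6 kb (chr9:106546866-106558440). In the annotation of the same build, exons of Grm7 overlap 260 bases of a processed transcript on the opposite strand. No other gene had exons overlapping those of a receptor, and the sources used here do not say whether the counting used strand.

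The promoters are shown to describe the start regions of the receptors, and the part of promoter sequence in the folds was not tested. Of the 9 genes, 7 matched the RefSeq promoter table (GRCm38.p6), all but Grik1 and Grm5. The 250 bases before the start are printed 5′ to 3′ for the receptors in the authors' deposited table (Grm7 and Grik3), for the subunit with the highest level in its family (Grik5) and for the receptor with no GC box (Grik2). Capitals mark the Sp1 GC box GGGCGG on either strand. The Grm7 sequence, the upstream one of 2 listed starts, lies at chr6:110645262-110645511 (+), Grik3 at chr4:125490446-125490695 (+), Grik5 at chr7:25072370-25072619 (-) and Grik2 at chr10:49788755-49789004 (-).
Grm7: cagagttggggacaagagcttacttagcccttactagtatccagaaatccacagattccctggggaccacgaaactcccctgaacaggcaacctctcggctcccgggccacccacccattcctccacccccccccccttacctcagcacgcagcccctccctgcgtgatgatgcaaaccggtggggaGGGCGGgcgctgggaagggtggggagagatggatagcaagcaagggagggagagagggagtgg
Grik3: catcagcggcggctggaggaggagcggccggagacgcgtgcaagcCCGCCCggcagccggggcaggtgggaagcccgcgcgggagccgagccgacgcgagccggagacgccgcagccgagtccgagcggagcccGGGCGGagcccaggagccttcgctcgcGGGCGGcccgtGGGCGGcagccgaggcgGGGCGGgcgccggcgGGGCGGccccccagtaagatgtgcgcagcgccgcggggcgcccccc
Grik5: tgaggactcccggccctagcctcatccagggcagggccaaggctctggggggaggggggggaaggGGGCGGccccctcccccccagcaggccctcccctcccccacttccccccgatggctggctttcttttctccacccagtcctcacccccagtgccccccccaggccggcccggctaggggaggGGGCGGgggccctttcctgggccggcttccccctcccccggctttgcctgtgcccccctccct
Grik2: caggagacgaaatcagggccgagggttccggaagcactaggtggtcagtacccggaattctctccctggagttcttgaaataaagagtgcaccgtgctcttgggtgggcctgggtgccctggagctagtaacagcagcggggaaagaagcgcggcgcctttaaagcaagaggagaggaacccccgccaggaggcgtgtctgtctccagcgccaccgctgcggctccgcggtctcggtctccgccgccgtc
The Grik3 window held 6 GC boxes, was 82.0% G or C and had 42 CpG pairs, while Grm7 held 1 box, was 62.0% G or C and had 8 CpG pairs. Grik5 held 2 boxes at 75.2% G or C with 8 CpG pairs, and Grik2 held none at 62.8% with 20 CpG pairs. Over all 32851 promoter windows of this length the medians were 52.4% and 6 CpG pairs. At least 1 GC box was present in 7 of the 8 receptor windows, from 6 of the 7 genes, against 32.7% of all windows. These shares were not matched for G or C content. None of the 8 held, on either strand, the cAMP response element TGACGTCA (1.55% of all windows) or its half-site TGACG, which lies within it (17.8%). Also absent from them were the AP-1 site TGANTCA (6.75%) and the TATA box TATAAA (12.4%). A match here is a description of the letters only.

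Grik5 and Grm5 were the most abundant transcripts of their families in every library. The lowest of the 9 was Grik4 in the etoposide, NMDA and NMDA control libraries and Grm2 in the etoposide control. Grik5 had 7.79 FPKM with etoposide, 14.0 in its control, 41.8 with NMDA and 39.1 in its control. Grm5 had 7.13, 14.7, 46.4 and 38.3 FPKM in the same libraries. The counting intervals of these 2 genes overlapped in the etoposide library and in both controls, and in the NMDA library Grm5 stood above Grik5. In the etoposide control the order after them was Grik2 at 9.69 FPKM, Grm7 at 9.26, Grm3 at 5.48, Grik3 at 3.05, Grik4 at 1.97, Grik1 at 1.75 and Grm2 at 1.20. Of these neighbours, Grik2 and Grm7, Grik4 and Grik1, and Grik1 and Grm2 overlapped in their intervals. With etoposide Grm7, at 2.53 FPKM, stood below Grm3, at 3.68 FPKM, and the intervals of these 2 genes did not overlap in either library of the pair. The 9 levels ranged from 0.790 to 7.79 FPKM with etoposide, from 1.20 to 14.7 in its control, from 5.81 to 46.4 with NMDA and from 5.91 to 39.1 in its control. They rested on about 44 to 804, 67 to 1768, 397 to 7160 and 445 to 6264 fragments in the same order.

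**Figure D1:**
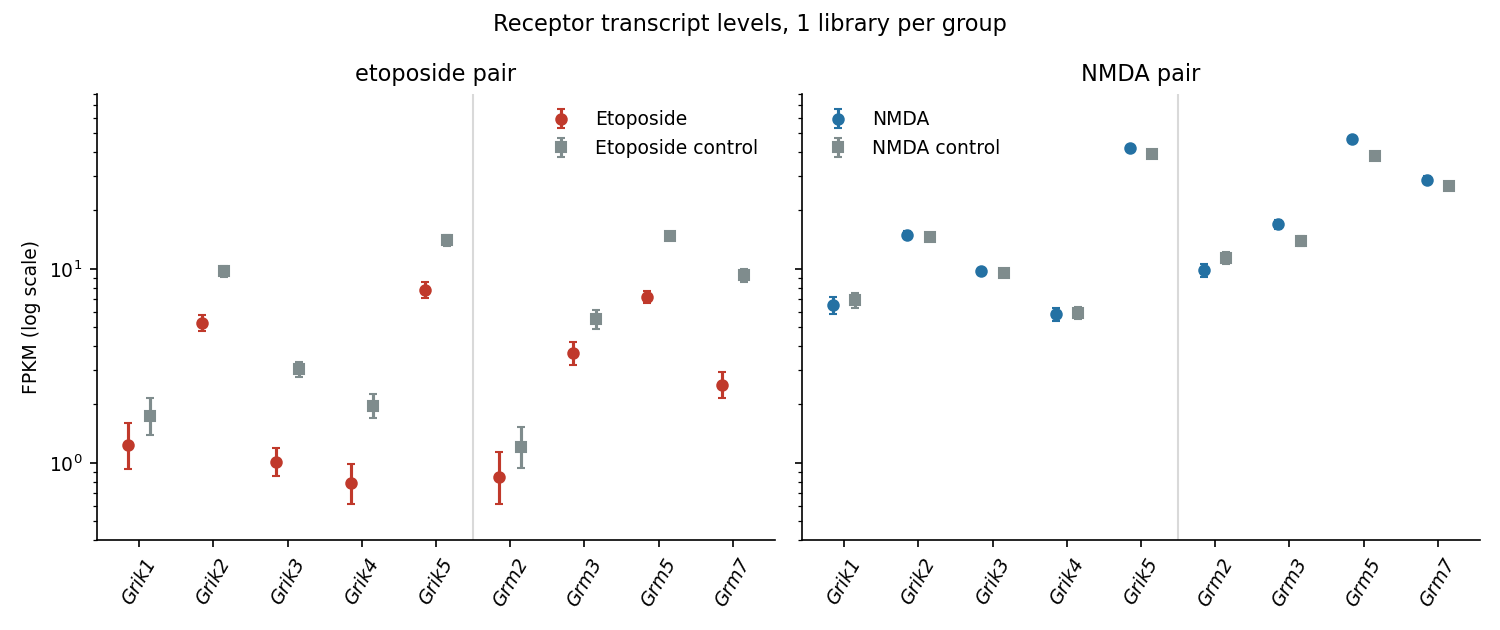
FPKM of the 9 receptors on a log axis in the etoposide pair (left) and the NMDA pair (right), with 1 library per group and error bars for the exact 95% counting interval. All 9 points of the etoposide library lie below those of its control, while the NMDA points lie close to those of their control.

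Etoposide was set against its control to ask how trapping the enzyme bears on transcript levels, and all 9 receptors were lower with it. The size differed between members. Grm7, Grik3, Grik4 and Grm5 were at less than 50% of the control FPKM, and Grik1 and Grm2 at about 70%. All 9 passed the level filter of FPKM of at least 1 in either library. Of all 10681 genes that passed it, 76.7% were lower, so the direction alone was common to most genes. At least 2-fold lower, on the log2(FPKM + 1) scale that compresses low genes, were 2 of the 9 (Grm7 and Grik3), against 7.36% of all genes, and 0 of 9 were 2-fold higher, against 0.477%. These 2 were also the members that the authors' deposited table lists as lower, a table that holds 3.03% of all genes as lower and 0.0535% as higher. By the plain FPKM ratio 4 of 9 were at least 2-fold lower, against 15.9% of genes above 0 in both libraries, and none was 2-fold higher, against 1.17%. The median log2 fold over the receptors was -0.77, against -0.32 over all genes, and 7 of the 9 lay below the median of all genes. Grm7 alone lay at least 2-fold below that median, against 2.08% of all genes.

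Grm7, the group III receptor of the active zone, had 2.53 FPKM with etoposide and 9.26 FPKM in its control. It had 28.8 FPKM with NMDA and 26.6 FPKM in that control. The etoposide library was the low one, and the ratio to its control was 0.273 (interval 0.229 to 0.324, from about 169 and 659 fragments), 3.67-fold lower. Its log2 fold was -1.54, which is -1.22 once the all-gene median is subtracted, and 99.2% of all genes compared had a higher one.

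Grm5, the group I receptor, had 7.13 FPKM with etoposide and 14.7 FPKM in its control, a ratio of 0.485 (interval 0.445 to 0.527) and a log2 fold of -0.95. The group II receptors were closer to their control. Grm3 had 3.68 FPKM with etoposide and 5.48 FPKM in its control, a ratio of 0.672 (interval 0.560 to 0.802). Grm2 had 0.846 FPKM with etoposide and 1.20 FPKM in its control, a ratio of 0.702 with an interval from 0.467 to 1.04, so a difference was not detectable at this depth of about 44 and 67 fragments. Relative to the median of all genes the log2 folds were -0.63 for Grm5, -0.15 for Grm3 and 0.07 for Grm2.

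Among the kainate subunits, Grik3 had 1.01 FPKM with etoposide and 3.05 FPKM in its control, a ratio of 0.332 (interval 0.275 to 0.401) and a log2 fold of -1.01. Grik4 had 0.790 FPKM with etoposide and 1.97 FPKM in its control, a ratio of 0.401 (interval 0.302 to 0.524), but only -0.73 on the log2(FPKM + 1) scale because its level is low. Grik2 had 5.26 FPKM with etoposide and 9.69 FPKM in its control, a ratio of 0.543 (interval 0.480 to 0.612). These subunits thus include a primary one and a secondary one at less than 50% of their control.

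Grik5 had 7.79 FPKM with etoposide and 14.0 FPKM in its control, a ratio of 0.555 (interval 0.496 to 0.621). Grik1 had 1.24 FPKM with etoposide and 1.75 FPKM in its control, a ratio of 0.710 with an interval from 0.493 to 1.00, whose upper end lay just above 1. Over the family, 7 of the 9 intervals lay wholly below 1, against 57.8% of the 10240 genes for which an interval could be made, and none lay wholly above 1, against 7.7%. Relative to the median of all genes the log2 folds were -0.69 for Grik3, -0.45 for Grik2 and Grik5, -0.41 for Grik4 and 0.03 for Grik1. With both libraries scaled to the same median, Grm7 alone was still at least 2-fold lower, against 1.96% of all genes. All 9 log2 folds were then below 0, where the median of all genes was 0.02. Grik1 and Grm2 lay at only -0.04, and the intervals of their unscaled ratios included 1, so their direction is not settled. These results depend on the control. Against the NMDA control, after scaling both to the same median, Grm7 (-1.27), Grik3 (-1.03) and Grm2 (-1.46) were at least 2-fold lower, while Grik2 (0.54) and Grm3 (0.12) were higher. Of the 13567 genes in that comparison, 11.3% were at least 2-fold lower and 6.62% at least 2-fold higher.

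**Figure D2:**
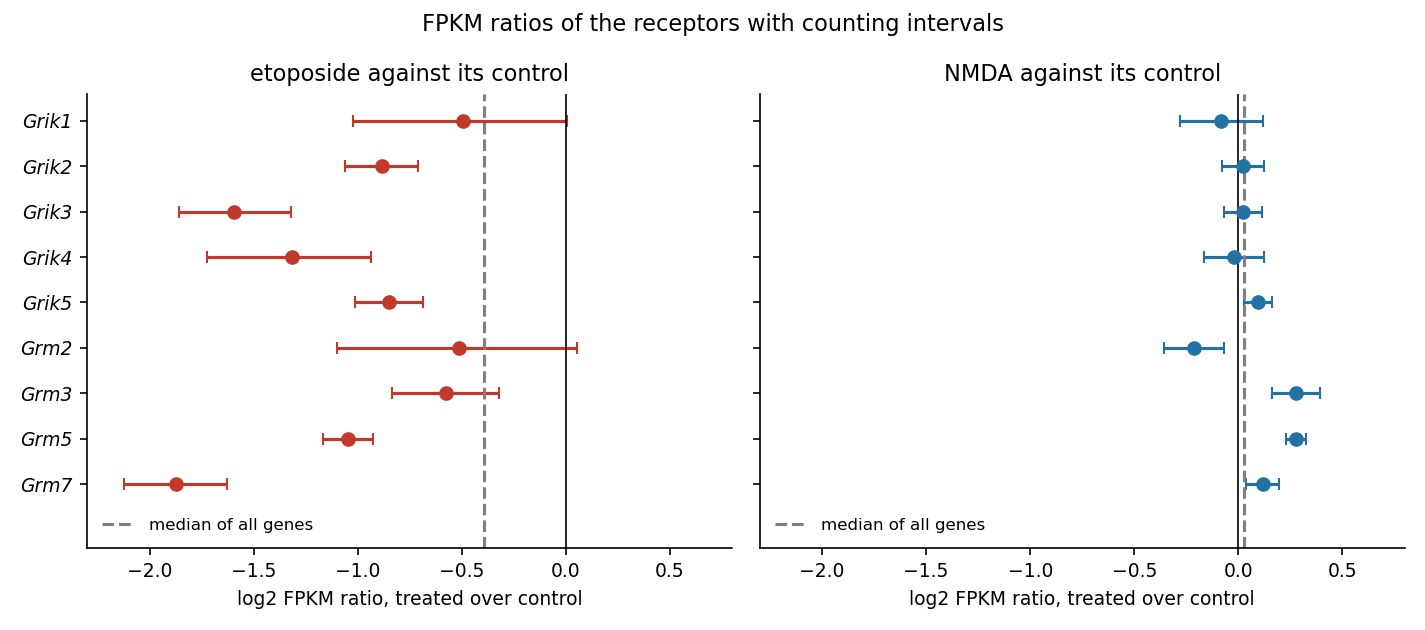
Plain log2 FPKM ratios of the 9 receptors, etoposide over its control (left) and NMDA over its control (right), with exact 95% counting intervals and the median of genes at FPKM of at least 1 in both libraries as a dashed line. Grm7 and Grik3 lie farthest below the dashed line with etoposide, while with NMDA all 9 lie between ratios of 0.863 and 1.21.

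Shares within a library do not depend on its scale, and in the metabotropic family the etoposide library stood apart in its share of Grm7. Grm7 made up 17.8% of the summed FPKM of the 4 metabotropic receptors with etoposide, against 30.2% in its control. It made up 28.3% with NMDA and 29.4% in that control, so the etoposide library was the low one of the 4. The ratio of Grm7 to Grm5 was 0.354 with etoposide (interval 0.298 to 0.418), against 0.629 in its control (0.574 to 0.688). It was 0.621 with NMDA (0.593 to 0.649) and 0.693 in that control (0.662 to 0.726). Grm3 took 25.9% of the metabotropic sum with etoposide, against 17.9% in its control, and Grm5 took 50.3% and 48.0% in the same libraries. The summed FPKM of the metabotropic receptors was 14.2 with etoposide and 30.7 in its control.

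The kainate family kept the balance of primary and secondary subunits within the etoposide pair. Grik4 and Grik5 together made up 53.3% of the kainate sum with etoposide and 52.5% in its control, at sums of 16.1 and 30.5 FPKM. Grik3 made up 6.28% with etoposide, against 9.98% in its control. The ratio of Grik3 to Grik2 was 0.192 with etoposide (interval 0.158 to 0.232), against 0.314 in its control (0.280 to 0.352). In the NMDA pair this ratio was 0.651 with NMDA and 0.651 in its control, so the 2 untreated cultures themselves differed more in it than the etoposide pair did. Grik2 made up 32.7% of the kainate sum with etoposide and 31.8% in its control, but 18.9% with NMDA and 19.2% in that control.

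**Figure D3:**
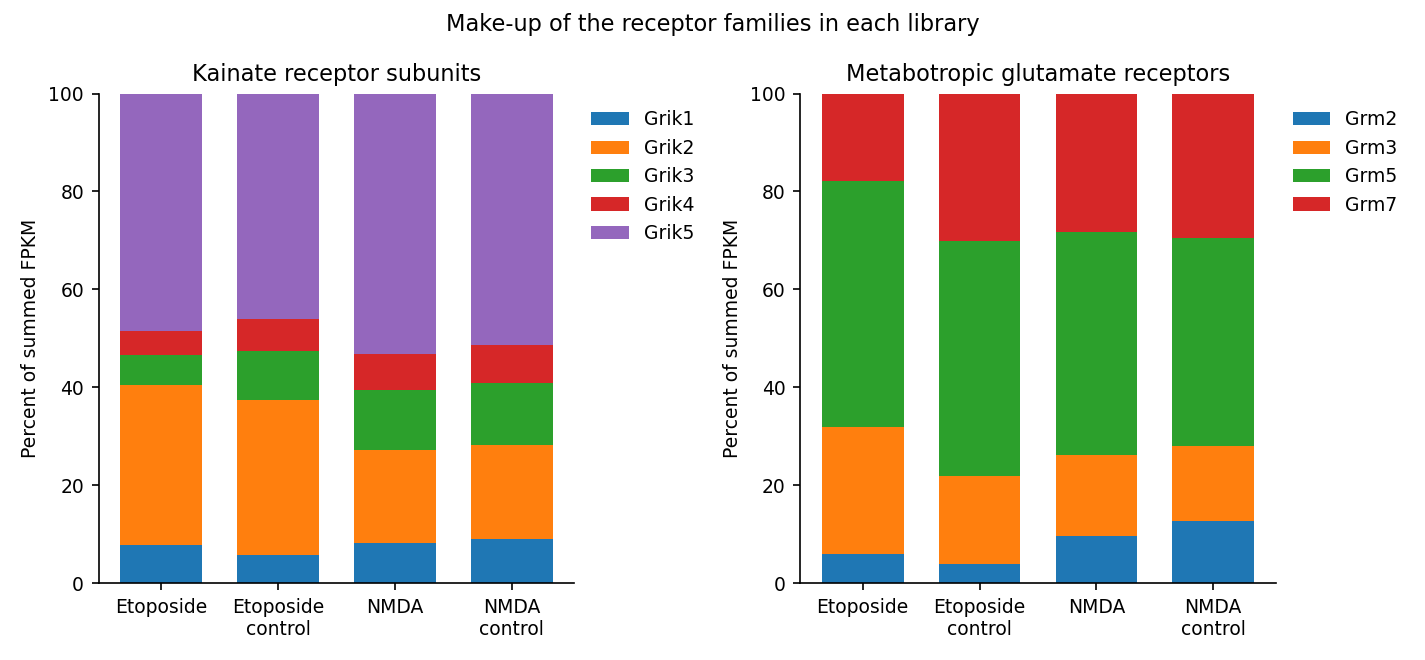
Percent of the summed FPKM of the kainate subunits (left) and of the metabotropic receptors (right) that each gene makes up in each of the 4 libraries. The Grm7 segment is 17.8% with etoposide and between 28.3% and 30.2% in the other 3 libraries, and the Grik2 segment separates the pairs.

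Genomic span moved with the fold over all genes, so the receptors were set beside genes of like span. With etoposide the median log2 fold of all genes compared was -0.09 for the 2530 genes up to 10 kb and -0.80 for the 295 genes over 400 kb. The 4 receptors over 400 kb lay on both sides of that median, with Grik4 at -0.73, Grik2 at -0.77, Grm5 at -0.95 and Grm7 at -1.54. Only 4.41% of the 295 genes had a lower log2 fold than Grm7. Of the receptors between 200 and 400 kb, where 438 genes had a median of -0.79, Grik3 lay below it at -1.01 while Grm3 at -0.47 and Grik1 at -0.29 lay above it. Grik5, in the bin from 30 to 100 kb with a median of -0.41, lay at -0.78, and 15.8% of the 3125 genes of that bin had a lower fold. Grm2, in the bin from 10 to 30 kb with a median of -0.21, lay at -0.26. The part of span in these folds was not tested.

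**Figure D4:**
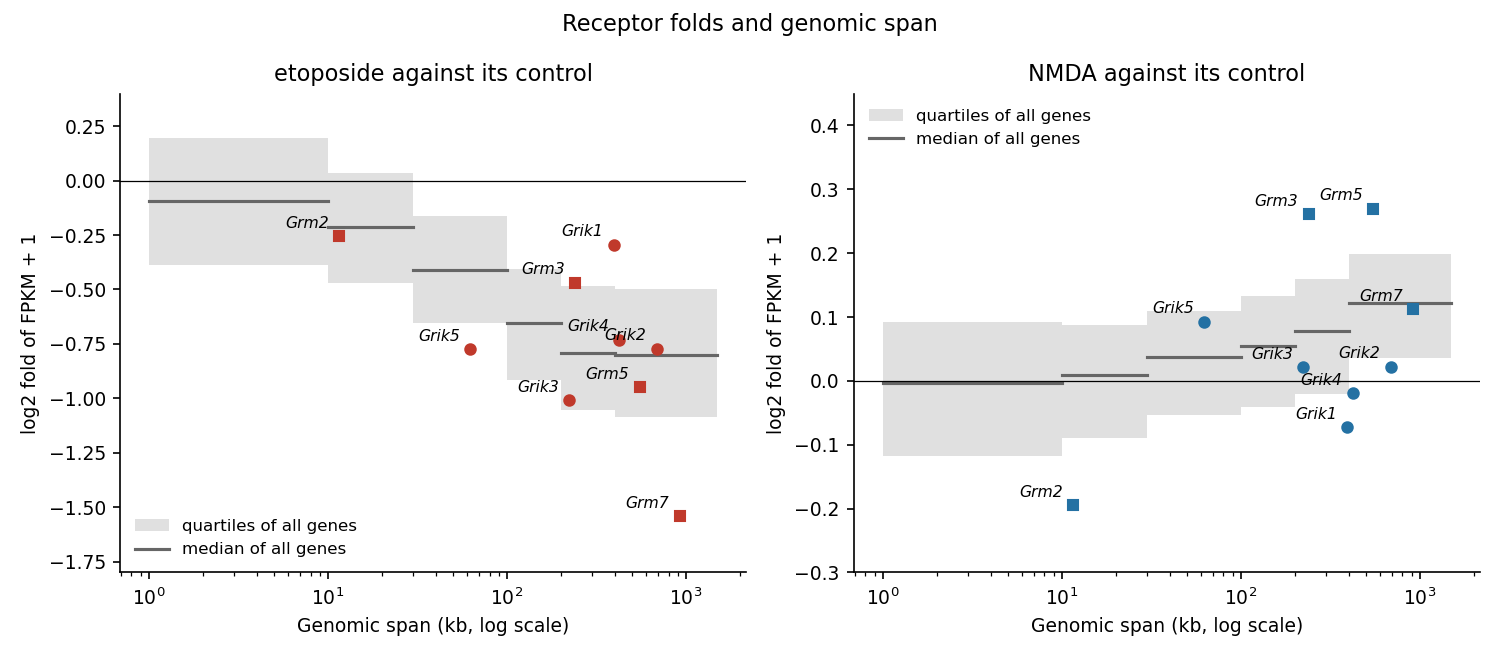
Log2 fold of FPKM + 1 against genomic span in kb (log axis) for the 9 receptors (circles for kainate, squares for metabotropic), with the median and quartiles of all genes compared in 6 span bins, for etoposide (left) and NMDA (right). With etoposide Grm7 at -1.54 and Grik5 lie below the quartiles of their bins, and Grik1 and Grm3 lie above theirs. With NMDA Grm3 and Grm5 lie above theirs and Grm2, Grik1, Grik2 and Grik4 below theirs.

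NMDA was set against its control to ask how stimulation bears on transcript levels, and no receptor differed 2-fold and none is in the authors' deposited table. That table holds 0.111% of all genes as higher and 0.169% as lower, and of the 13028 genes compared 0.438% were 2-fold or more above the control and 0.729% 2-fold or more below it. By the plain ratio these shares were 0.294% above and 0.518% below, again with no receptor among them. All 9 receptors passed the level filter. The log2 folds ran from -0.19 to 0.27 with a median of 0.02, equal to the median of all genes at 0.02. By any amount 6 of the 9 were higher, against 57.2% of all genes, and 3 were lower, against 42.8%.

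Grm5 and Grm3 stood highest with NMDA. Grm5 had 46.4 FPKM with NMDA and 38.3 FPKM in its control, a ratio of 1.21 (interval 1.17 to 1.25), and 3.55% of all genes compared had a higher fold. Grm3 had 16.9 FPKM with NMDA and 13.9 FPKM in its control, a ratio of 1.21 (interval 1.12 to 1.31), and 3.93% of genes had a higher fold. Both were above the upper quartile of genes of like span, while Grm2, Grik1, Grik2 and Grik4 were below the lower quartile of theirs, with 10.1%, 16.3%, 22.9% and 16.1% of their bins lower. The most abundant astrocyte markers were Fabp7, a lipid-binding protein, at 912 FPKM with NMDA and 867 FPKM in its control, and Aldoc, a glycolytic enzyme, at 305 and 301 FPKM. The sum of the 10 astrocyte markers was 1839 FPKM with NMDA and 1827 FPKM in its control, but 7 of the 10 were lower and 3 higher, with a median log2 fold of -0.07. Gfap, the astrocyte filament protein, was among the 7 lower, at 93.9 FPKM with NMDA and 113 FPKM in its control. Of the pan-neuronal markers 9 of 9 were higher with NMDA, with a median log2 fold of 0.11. Higher too were 7 of 8 excitatory and 6 of 10 inhibitory neuron markers, against 57.2% of all genes. The part of cell types in the receptor folds was not tested.

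Grm2 stood lowest with NMDA, at 9.83 FPKM, against 11.4 FPKM in its control, a ratio of 0.863 (interval 0.780 to 0.955), and 9.69% of genes had a lower fold. Its interval was the only 1 of the 9 wholly below 1, against 11.7% of the 12323 genes with an interval. Wholly above 1 were 4 of the 9, against 22.6%. Besides Grm5 and Grm3 these were Grm7, at 28.8 FPKM with NMDA and 26.6 FPKM in its control (ratio 1.08, interval 1.03 to 1.15), and Grik5, at 41.8 and 39.1 FPKM (ratio 1.07, interval 1.02 to 1.12). The interval of Grik5 contained the median ratio of all genes of 1.02, and that of Grm7 began just above it. Grik1 at 6.49 and 6.88 FPKM, Grik2 at 14.9 and 14.6, Grik3 at 9.69 and 9.54 and Grik4 at 5.81 and 5.91, NMDA before control, had intervals that included 1. Against the etoposide control, after scaling both to the same median, Grm3 and Grm5 lay at -0.0016 and 0.03, Grm2 at 0.92 and Grik2 at -0.88. The median of all genes there was 0.008. The direction of Grm2 thus turned, and Grm3 and Grm5 both lay at about 0.

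Transcripts of the proteins that work with the receptors were mostly lower with etoposide, as were those of all genes, 76.7% of which were lower and 7.36% at least 2-fold lower. Of 10 kainate receptor auxiliary and trafficking genes compared, 9 were lower and 2 at least 2-fold lower, among them Neto1, a channel partner, at 2.27 FPKM with etoposide and 5.73 FPKM in its control. The other was Nrxn3, a presynaptic adhesion protein, at 3.57 and 8.25 FPKM. Of 23 group I signalling genes, 20 were lower and 6 at least 2-fold lower. Gnaq, the G protein of group I receptors, had 13.4 FPKM with etoposide and 34.4 FPKM in its control, Itpr1, the calcium release channel of the reticulum, 1.23 and 4.65, and the kinase genes Prkca 1.69 and 5.91 and Prkcb 8.42 and 22.8. Of 19 group II and III signalling genes, 18 were lower and 3 at least 2-fold lower. These were the G protein genes Gnai2, at 7.18 FPKM with etoposide and 18.3 FPKM in its control, and Gnao1, at 32.4 and 69.8 FPKM, and the adenylyl cyclase gene Adcy1, at 12.3 and 27.6 FPKM. The median log2 folds of these lists were -0.67, -0.59 and -0.63 in the order given, against -0.32 over all genes.

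AMPA and NMDA receptor subunits and the uptake genes had lower medians than these, and the share of all genes that were lower, to set beside their counts, is again 76.7%, with 7.36% at least 2-fold lower. All 8 AMPA and NMDA receptor subunits compared were lower, 3 at least 2-fold, with a median log2 fold of -0.95. Gria1, an AMPA receptor subunit, had 11.2 FPKM with etoposide and 29.6 FPKM in its control, and Grin2b, an NMDA receptor subunit, 7.71 and 25.7 FPKM. All 10 glutamate uptake, release and synthesis genes were lower, 2 at least 2-fold, with a median of -0.85. These were Slc1a2, the astrocyte glutamate transporter, at 6.80 FPKM with etoposide and 17.7 FPKM in its control, and Slc17a7, which loads vesicles with glutamate, at 10.3 and 25.4 FPKM. All 3 genes of the RNA editing list were lower, with a median of -0.65 and none 2-fold lower on the log2(FPKM + 1) scale. Adarb1, which edits transcripts of glutamate receptors and is listed as lower in the authors' deposited table, had 3.07 FPKM with etoposide and 7.10 FPKM in its control, and Adarb2, a relative, 0.565 and 1.46 FPKM, so both were over 2-fold lower by the plain ratio.

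With NMDA no gene of these lists differed 2-fold. The median log2 folds were 0.09 for kainate receptor auxiliary genes, 0.12 for group I signalling and 0.06 for group II and III signalling. They were 0.06 for uptake, release and synthesis, 0.16 for AMPA and NMDA subunits and 0.08 for the RNA editing list. Over all genes the median was 0.02. In group I signalling 19 of 23 were higher, against 57.2% of all genes. Homer1, the scaffold that ties group I receptors to the postsynaptic density, had 31.1 FPKM with NMDA and 24.7 FPKM in its control. The list also held Ncdn, a binding partner of Grm5, at 189 and 161 FPKM. Grin2b, which the authors' deposited table lists as higher, had 67.8 FPKM with NMDA and 45.5 FPKM in its control. On the low side, Klhl17, which binds kainate receptor subunits, had 7.88 FPKM with NMDA and 11.1 FPKM in its control.

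**Figure D5:**
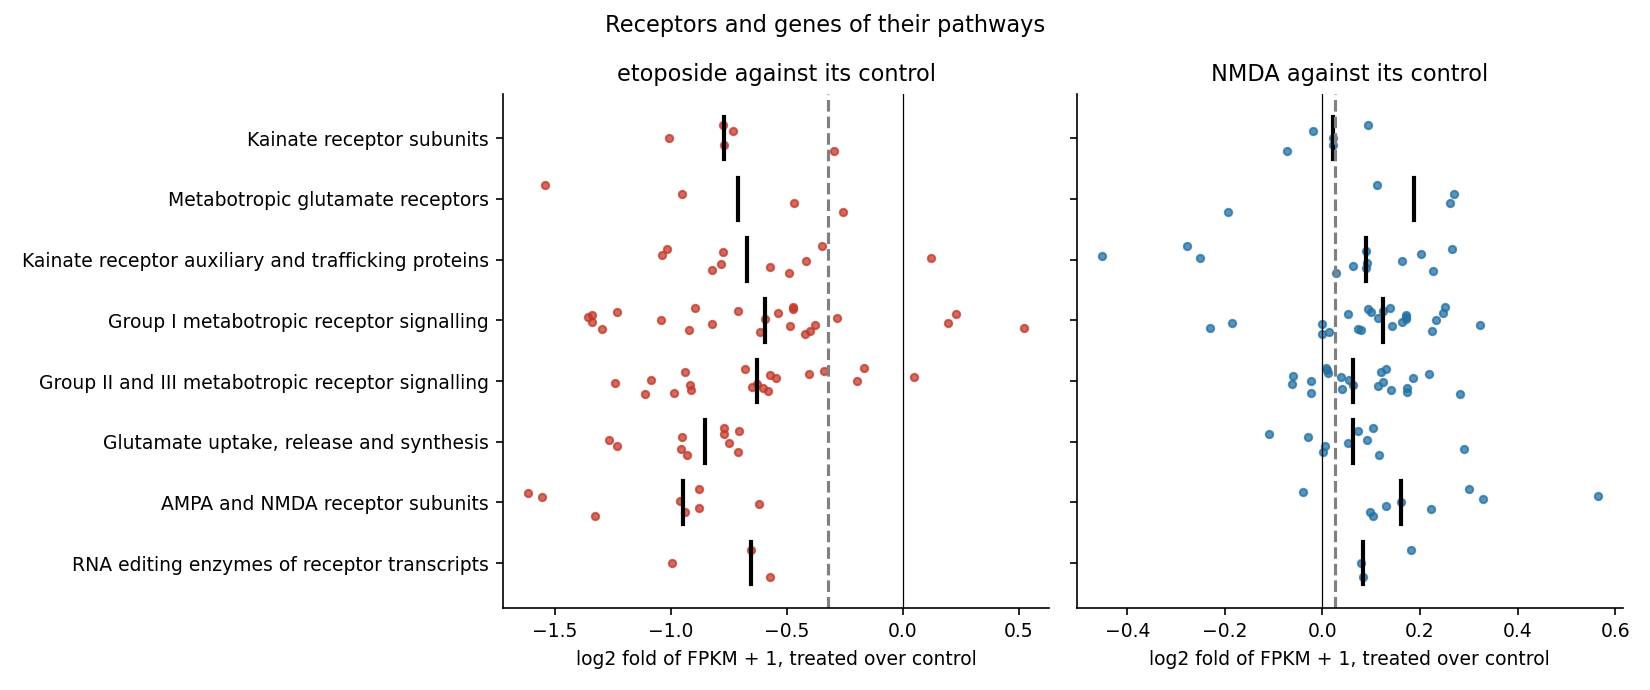
Log2 fold of FPKM + 1 of every compared gene of the 2 receptor families and 6 related lists (points), with list medians as black bars and the median of all genes as a dashed line, for etoposide (left) and NMDA (right). With etoposide every list median lies left of the dashed line, from -0.59 for group I signalling to -0.95 for AMPA and NMDA subunits.

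Most markers of cell types were lower in the etoposide pair, as were 76.7% of all genes. Excitatory neuron markers summed to 58.5 FPKM with etoposide and 108 FPKM in its control, with 7 of 8 lower, and pan-neuronal markers to 347 and 577 FPKM, with 9 of 9 lower. Astrocyte markers summed to 111 FPKM with etoposide and 199 FPKM in its control, with 9 of 9 compared markers lower. Progenitor markers summed to 31.3 and 89.8 FPKM, with only 3 of 10 compared, all lower. Vim made up most of that difference, at 24.4 FPKM with etoposide and 72.5 FPKM in its control. Inhibitory neuron markers summed to 133 FPKM with etoposide and 105 FPKM in its control, although 7 of 10 were lower, because the peptide gene Sst had 87.9 and 34.6 FPKM. Oligodendrocyte lineage markers summed to 6.39 FPKM with etoposide and 22.4 FPKM in its control. Only 3 of these 10 were compared, all lower, and most of that difference was Olig1, at 3.36 and 16.6 FPKM. Microglial markers summed to 0.425 and 0.539 FPKM and endothelial and mural markers to 0.645 and 5.79 FPKM in the same order. Most of that last difference was Acta2, a smooth muscle actin, at 0.0944 FPKM with etoposide and 4.61 FPKM in its control. Of the microglial and of the endothelial and mural markers, only C1qb and Cldn5 were listed at 0 in both libraries. Acta2 was the only one of them at FPKM of at least 1 in either library. In bulk samples fewer cells of a type and less RNA per cell cannot be told apart, and the part of these markers in the receptor results was not tested. In the NMDA pair microglial markers summed to 3.77 FPKM with NMDA and 4.71 FPKM in its control, and the ratios of the other marker sums lay between 0.833 for the endothelial and mural list and 1.07 for the pan-neuronal list.

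The genes whose profile over the 4 libraries was most like the summed receptors were Dnm1 (dynamin, of vesicle recycling), Zfml, Kcnj3 (a potassium channel subunit opened by Gi/o signalling), Gphn (gephyrin, the scaffold of inhibitory synapses) and Pcdh10 (a protocadherin). Their distances from the receptor sum were 0.0173 to 0.0434 on the log2(FPKM + 1) scale, out of 9533 genes at FPKM of at least 1 in all 4 libraries. The points share the difference in scale between the pairs, which makes up most of each profile.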

How the data were processed

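The authors computed the FPKM values, which were taken as deposited from 1 table per library with 22440 genes in each. Per the submitters' processing notes the tools include TopHat, Bowtie, Cufflinks 2.0.0 and Cuffdiff and the build is mm9. Per the labels' protocols, total RNA libraries were sequenced in paired ends. The authors' deposited tables of 692 and 63 genes hold the same FPKM as the library tables within a relative tolerance of 0.0001, and the sources used here do not give their listing rule.

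Groups follow sample titles. Fold is log2((treated + 1)/(control + 1)) for genes at FPKM of at least 1 in either library, over all genes, with a call at 2-fold. Plain ratios have Clopper-Pearson intervals from fragment numbers. The steps behind these numbers were read from the 69 to 124 genes per library with low values, out of 1542 single-exon genes. Effective length was transcript length minus 270 bases. In the libraries 51.6% to 71.4% of the low values used lay within 0.1 of a whole number. The transcript was the longest coding one in GENCODE. Fragment steps, folds and intervals were tested on simulated data. Python 3.11.15, pandas 2.3.3 and scipy 1.17.1 were used. Loci have 1 added to each start. The alternatives tried were other pseudocounts, level filters, scaling and the other control. Named genes beyond the 9 receptors follow a rule: up to 4 members by size of fold per pathway list, up to 2 by level per marker list, and 5 by likeness. Further names were chosen after their values were seen. Members and lists were chosen with earlier results of these data known.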

Additional observations from a re-analysis of the deposited data

How the results depend on the processing

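Of the 5 alternatives that kept a pair's own libraries, only scaling could turn the direction of a receptor. Other pseudocounts, the plain ratio and other level filters keep the direction by construction. With the pair scaled all 9 receptors stayed lower with etoposide, but Grik1 and Grm2 lay at only -0.04. Over the 5 alternatives the median log2 fold of the receptors stayed between -0.88 and -0.40. It moved to -0.40 with the pair scaled to the same median, where 1 receptor was 2-fold changed. The other control, scaled to the same median, gave -0.37. The number at least 2-fold changed was 4 with a pseudocount of 0.1 FPKM and 4 by the plain ratio, against 2 in the report, and 1 of 5 receptors left at FPKM of at least 5. All of these were lower. The share of all genes at least 2-fold lower was 14.5% with that pseudocount, 15.9% by the plain ratio and 11.8% at FPKM of at least 5. Lower pseudocounts call more low genes by construction. For the effect of the other control the cause was not tested. With NMDA no alternative gave a receptor a 2-fold difference. The median lay between -0.0032 and 0.02, and with the pair scaled Grik2 and Grik3, near 0 in the report, lay just below it. For single receptors against the other control, 6 of 9 log2 folds with etoposide and 7 of 9 with NMDA moved from the reported fold. A move here is one larger than the longer side of the counting interval. Scaling is part of these moves, as the reported folds are unscaled. With their own control scaled, 5 of 9 moved with etoposide, while all 9 with NMDA stayed. Shares of all genes past 2-fold moved too, with 7.36% lower and 0.477% higher with etoposide as deposited, and 1.96% and 1.83% after scaling to the same median. No paired analysis was possible because each group had 1 library. Depth limits Grm2, Grik1 and Grik4 in the etoposide pair, with 44 to 200 fragments each.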

Other observations

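The 2 untreated cultures differed in single receptors. After division of the NMDA control by 3.03, Grm2 stood at 3.76 FPKM in the NMDA control and 1.20 FPKM in the etoposide control, a ratio of 3.12, and 6.22% of 11396 genes compared had a higher fold. Grik2 stood at 4.83 and 9.69 FPKM in the same order, a ratio of 0.499, and 3.10% of genes had a lower fold. The remaining 7 receptors had ratios between 0.840 for Grm3 and 1.30 for Grik1, with Grm7 at 0.947 and Grik3 at 1.03. With etoposide, after scaling to the same median, Grm7 had a log2 fold of -1.22 against its own control and -1.27 against the NMDA control, and Grik3 had -0.78 and -1.03. Both comparisons share the etoposide library. Grm2 took 3.93% of the metabotropic sum in the etoposide control and 12.6% in the NMDA control.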
